A study of Drosophila melanogaster with 4 samples.

Results

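Stalker, Stalker2 and Tabor are 3 long terminal repeat (LTR) retrotransposons of *Drosophila melanogaster*. Their RNA was followed in direct RNA sequencing libraries of poly(A) RNA, read on an Oxford Nanopore device. The members were taken by name from deposited tables of 150 reference sequences, of which 124 are transposons. In the first pair of libraries, ovaries had a hairpin against *vreteno* under Tj-GAL4 (Tj-GAL4>vretenoGD), set against ovaries with a control hairpin against *arrestin2* under the same driver (Tj-GAL4>arrestin2GD). In the second pair, the ovarian somatic cell line OSC received siPIWI, set against siGFP. Each of these 4 groups had 1 library, so no test between conditions was possible, and no interval below covers variation between replicates. Intervals of shares and folds cover counting error only, save where scaling error is said to be added. The interval of the ratio used for scaling rests on its spread over transposons. Tj-GAL4 drives hairpins in ovarian somatic cells, while the ovaries sampled also hold germ cells. The age of the flies and the number of animals are not given in the sources used here. OSCs are a single cultured line of somatic follicle cells.

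LTR retrotransposons move through an RNA copy. A full-length RNA starts in the repeat at the 5' end and is cut and polyadenylated in the repeat at the 3' end, and it encodes Gag, the protein of the particle, and Pol, which holds the protease, reverse transcriptase and integrase. In the follicle cells that surround the germline, the nuclear Argonaute Piwi, guided by piRNAs, silences many LTR elements. Vreteno carries Tudor domains and acts in piRNA production. Stalker, Stalker2 and Tabor belong, with mdg1, '412' and blood, to the mdg1 group of Ty3/gypsy elements.

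The libraries held 5156 transposon reads in vreteno knockdown ovaries and 2382 in control ovaries, and 164243 in siPIWI OSCs and 57045 in siGFP OSCs. Each deposited value was taken as a count of read 3' ends at 1 consensus nucleotide, because the counts were sparse and lay mostly near the 3' termini. The full depth of the libraries is unknown, so knockdown reads were divided by the median knockdown-to-control read ratio over transposons that had 10 or more reads in each library of the pair. This ratio was 0.903 in ovary (95% interval 0.761 to 1.07, 30 transposons) and 1.99 in OSCs (1.55 to 2.63, 54 transposons). Its own uncertainty multiplies this ratio by 0.842 to 1.18 in ovary and by 0.779 to 1.33 in OSCs. Any fold is divided by the same factors, so a higher ratio means a lower fold. The scaling takes the typical transposon as equal in both libraries, which was not tested. Levels of *vreteno* and *piwi* mRNA, and of marker genes for ovary or follicle cells, were not analysed here.

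The consensus sequences were of similar length: 7256 nt for Stalker, 7672 nt for Stalker2 and 7345 nt for Tabor. In the Ensembl annotation of assembly BDGP6, which describes the reference strain and not the flies or cells studied here, Stalker had insertions at 20 places, Stalker2 at 17 and Tabor at 11. The median insertion length was 1836 nt for Stalker, 7289 nt for Stalker2 and 2373 nt for Tabor, so only Stalker2 was annotated mostly as long copies. Insertions within 5% of the consensus length numbered 4 for Stalker, 6 for Stalker2 and 4 for Tabor. One Stalker insertion matched its consensus length exactly, on the minus strand of chromosome X, 19797403 to 19804658, outside annotated genes. A Tabor insertion of exactly 7345 nt lay on the minus strand of chromosome 2L, 11540638 to 11547982, also outside genes. A Stalker copy of 7255 nt on chromosome 3R, 26558383 to 26565637, lay within *scrib*, a cell polarity gene, on the same strand, and overlapped none of its exons. Among Stalker2 copies, that of 7670 nt on chromosome 3L, 14825181 to 14832850, lay within CG17839 without touching an exon, and that of 7883 nt on chromosome X, 1954941 to 1962823, lay within the nuclear receptor gene *Hr4* on the opposite strand. The annotation also names a Stalker4, with 38 places, which is not used here. How reads shared by related elements were assigned is not given in the sources used here, so the split of reads between Stalker and Stalker2 is uncertain to that extent. Whether reads of Stalker3 or Stalker4 were counted under another element is not known either.

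In both pairs all 3 elements had more reads in the knockdown library. Stalker2 had the most reads of the 3 in each knockdown library and in siGFP OSCs. It gave 78 reads in vreteno knockdown ovaries, against 3 in control ovaries, and 2148 in siPIWI OSCs, against 131 in siGFP OSCs. Stalker gave 26 reads in vreteno knockdown ovaries, against 4 in control ovaries, and 452 in siPIWI OSCs, against 27 in siGFP OSCs. Tabor gave 24 reads in vreteno knockdown ovaries, against 2 in control ovaries, and 668 in siPIWI OSCs, against 5 in siGFP OSCs. Together they held 2.48% of transposon reads in vreteno knockdown ovaries (exact Clopper-Pearson 95% interval 2.08 to 2.94) and 0.378% in control ovaries (0.173 to 0.716). In OSCs they held 1.99% with siPIWI (1.92 to 2.06) and 0.286% with siGFP (0.244 to 0.333). In bulk RNA, more cells with an element's RNA and more RNA per cell cannot be told apart.

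Per kb of consensus, the order in siPIWI OSCs was Stalker2 with 279.98 reads, Tabor with 90.9 and Stalker with 62.3. In siGFP OSCs it was Stalker2 with 17.1, Stalker with 3.72 and Tabor with 0.681, so Stalker and Tabor changed places. As shares of transposon reads, the intervals of Stalker (0.0473%, 0.0312 to 0.0689) and Tabor (0.00877%, 0.00285 to 0.0205) in siGFP OSCs did not overlap. In vreteno knockdown ovaries Stalker2 had 10.2 reads per kb, above 3.58 for Stalker and 3.27 for Tabor, and the shares of Stalker (0.504%, 0.330 to 0.738) and Tabor (0.465%, 0.298 to 0.692) overlapped. The 3 control ovary values, 0.551 reads per kb for Stalker, 0.391 for Stalker2 and 0.272 for Tabor, rest on 4 reads or fewer and have no order beyond counting error. Ranked by reads among all transposons, Tabor stood 14th in siPIWI OSCs against 59th in siGFP OSCs, Stalker 15th against 32nd, and Stalker2 8th against 14th.

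**Figure D1:**
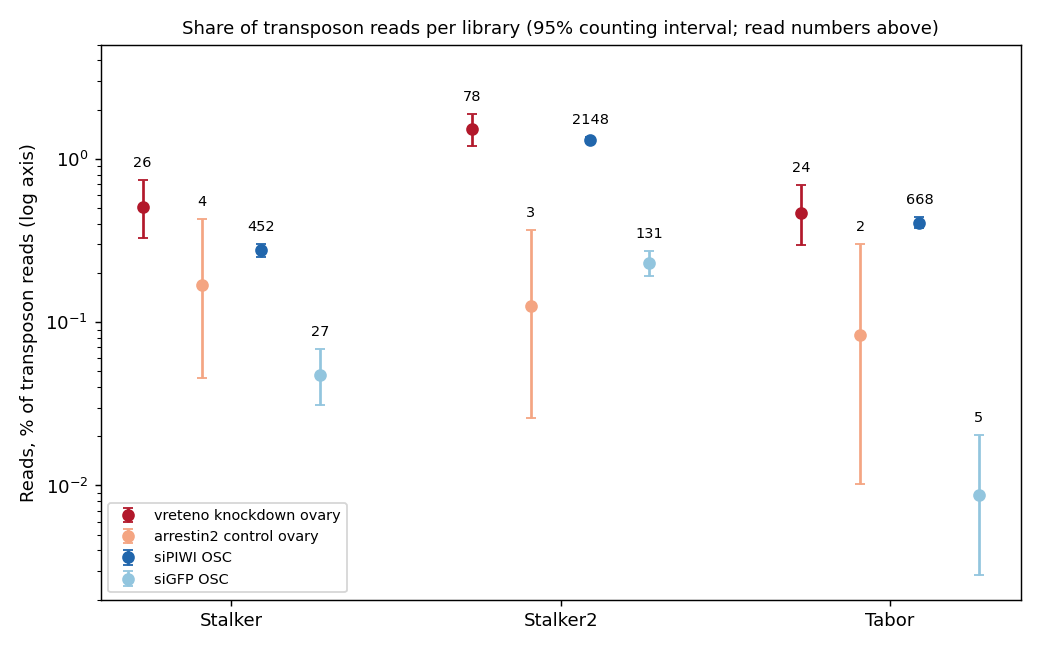
Share of transposon reads (vertical axis, log scale, percent) taken by each element in the 4 libraries, with exact 95% counting intervals as bars and read numbers printed above. Each knockdown point lies above its control, and the intervals of the ovary pair overlap for Stalker and for Tabor but not for Stalker2.

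The first comparison asked how the RNA of these elements differed when *vreteno* was knocked down in the ovarian soma. Scaled reads were 28.8-fold higher for Stalker2 (exact conditional 95% interval 9.49 to 143), 13.3-fold for Tabor (3.30 to 116) and 7.20-fold for Stalker (2.50 to 28.4). All 3 met the call used here, a log2 ratio of at least 2 (4-fold) with a pseudocount of 1 read and at least 10 reads in the larger library. That call was met by 26.7% of the 45 transposons past the minimum, and none was as far below. The members' median log2 ratio was 3.20, against 0.26 over those 45. Each member passed the minimum only through the knockdown library, so a high ratio is in part set by the filter and these counts are a description. Scaled to total transposon reads, Stalker was at a log2 ratio of 1.38, under the call, while Stalker2 stayed at 3.21 and Tabor at 2.01. A pseudocount of 10 reads left Stalker2 above it at 2.89, with Stalker at 1.47 and Tabor at 1.61, and the highest single position alone gave 1.93 for Tabor.

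The second comparison asked the same of OSCs after *piwi* knockdown, where control reads were more numerous for Stalker2 and Stalker. Tabor was 67.3-fold higher with siPIWI (28.7 to 208), Stalker 8.43-fold (5.72 to 12.9) and Stalker2 8.26-fold (6.92 to 9.93). Stalker and Stalker2 thus lay within each other's intervals, and the Tabor interval lay above both. All 3 met the 4-fold call, which 24.7% of 73 transposons met. Tabor, with 5 siGFP reads, passed the minimum only through siPIWI, so its call is in part set by the filter and the count of 3 is no support. The members' median log2 ratio was 3.04, against 0.27 over the 73, and is given as a description. Every scaling tried kept all 3 above the call, the lowest value being a log2 ratio of 2.50 for Stalker and for Stalker2 with total transposon reads. Outside the 51 positions around its most used ends, Stalker was under the call, at a log2 ratio of 1.93 in OSCs and 1.93 in ovary.

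**Figure D2:**
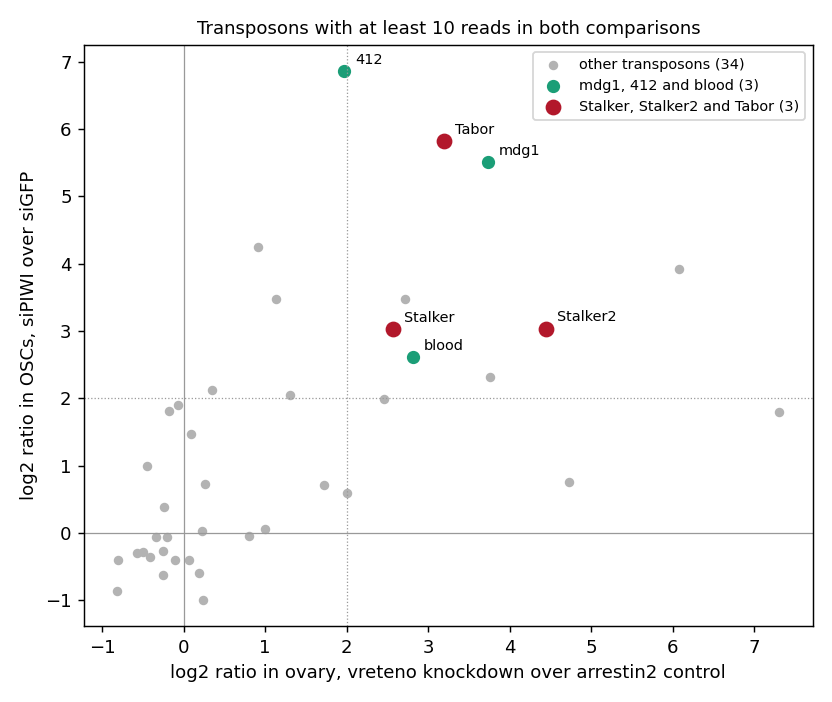
Log2 ratio in ovary (horizontal axis) against that in OSCs (vertical axis) for the 40 transposons with at least 10 reads in the larger library of both comparisons, with dotted lines at 2. Stalker, Stalker2 and Tabor lie past 2 on both axes, as do mdg1 and blood, while '412' is at 1.97 in ovary. Outside the mdg1 group, gypsy, HMS-Beagle2 and Transib1 also lie past 2 on both axes, so this place is not particular to the group.

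The difference between the systems was taken as the log2 fold in OSCs minus that in ovary, with 0.5 reads added to each count. For Tabor it was 2.50 (counting interval 0.26 to 4.73, and 0.22 to 4.78 with the scaling error added), with log2 folds of 5.94 in OSCs and 3.44 in ovary. This did not hold when libraries were scaled to the non-transposon sequences (1.81, -0.43 to 4.04). Stalker2 leaned the other way, at -1.59 (-3.16 to -0.03), with an interval of -3.22 to 0.04 once the scaling error was added. With total transposon reads as the scale it was -0.87 (-2.43 to 0.70), and with the non-transposon sequences -2.28 (-3.85 to -0.72). For Stalker it was 0.35 (-1.20 to 1.89), so no difference was detectable at this depth. The ovary terms rest on 2 to 4 control reads.

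In the rest of the mdg1 group, mdg1 was 14.5-fold higher in ovary (7.64 to 31.0) and 46.1-fold in OSCs (37.4 to 57.4). The element blood was 7.16-fold (5.29 to 9.89) and 6.15-fold higher (5.47 to 6.93), and '412' was 3.94-fold (3.42 to 4.54) and 122-fold higher (78.8 to 200). Of the 6 entries of the group, 5 met the call in ovary and 6 in OSCs, with median log2 ratios of 3.01 and 4.27. These counts include the 3 members, whose calls in ovary, and that of Tabor in OSCs, are in part set by the filter. Without the members, 2 of 3 entries met the call in ovary and 3 of 3 in OSCs. Over all transposons past the minimum, 26.7% of 45 met it in ovary and 24.7% of 73 in OSCs. Of the 15 entries of the env-carrying gypsy group, 9 passed the minimum in ovary and 5 met the call, and 12 passed in OSCs and 5 met it. Stalker, Stalker2 and Tabor made up a small part of the mdg1 group reads in ovary, 8.61% with vreteno knockdown and 2.78% in the control. In OSCs they made up 16.3% with siPIWI and 28.1% with siGFP, where blood held most of the others.

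Profiles over the 4 libraries were compared as the Euclidean distance between centred log2 values of reads per 100000 transposon reads, plus 1, for 78 transposons. The nearest to Stalker was blood at a distance of 0.46, followed by the I-element at 1.28 and Quasimodo at 1.43, against a median distance of 3.95. Nearest to Tabor were mdg1 at 1.46, Pifo at 1.81 and gtwin at 1.89, against a median of 5.53. Stalker2 lay nearest to the endogenous retrovirus gypsy at 1.32, then Quasimodo at 1.73 and gypsy11 at 1.77, against a median of 5.03. These are descriptions over 4 libraries that share their scaling. Gypsy11 had at most 15 reads in any library. In vreteno knockdown and control ovaries the I-element had 9 and 2 reads, Pifo 8 and 2, and gtwin 8 and 3. In siGFP OSCs Pifo had 1 read and gtwin 4. The members' own control counts were low as well, so these distances rest on few reads.

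Reads were next split by where they ended, in the first 70% of the consensus (upstream) or in its last 30%. In a direct RNA library a read starts at the poly(A) tail, so an end near the 3' terminus is where a full-length transcript of an LTR element would be expected to stop. In siPIWI OSCs, 374 of 452 Stalker reads ended in the last 30%, which is 82.7% (78.9 to 86.1), against 13 of 27 in siGFP OSCs, 48.1% (28.7 to 68.1). For Stalker2 the counts were 1140 of 2148, 53.1% (50.9 to 55.2), with siPIWI and 40 of 131, 30.5% (22.8 to 39.2), with siGFP. Both elements thus had a larger share of 3' ends in the knockdown, with separate intervals, by 34.6 points for Stalker (Newcombe interval 16.3 to 52.3) and 22.5 points for Stalker2 (13.9 to 30.1). Of the 54 transposons with 10 or more reads in each OSC library, 24.1% had a larger share with separate intervals. Tabor had 368 of 668, 55.1% (51.2 to 58.9), with siPIWI and 2 of 5 with siGFP, and a difference was not detectable at this depth (15.1 points, -22.0 to 43.6).

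In vreteno knockdown ovaries, 25 of 26 Stalker reads, 61 of 78 Stalker2 reads and 17 of 24 Tabor reads ended in the last 30%. In control ovaries this was so for 3 of 4 Stalker reads, 0 of 3 Stalker2 reads and 1 of 2 Tabor reads. The difference was 78.2 points for Stalker2 (21.1 to 85.9), on 3 control reads. For Stalker (21.2 points, -4.23 to 66.2) and Tabor (20.8 points, -24.4 to 63.8) the intervals included 0.

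**Figure D3:**
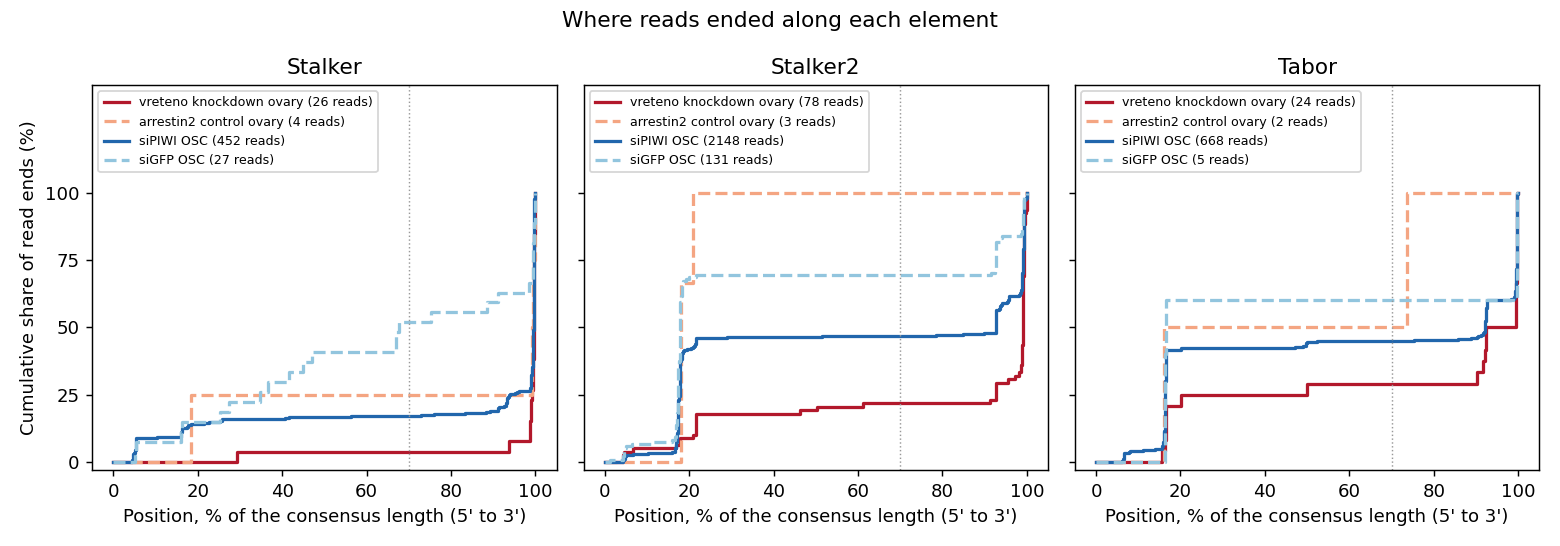
Cumulative share of read ends (vertical axis, percent) along the consensus from 5' to 3' (horizontal axis, percent of its length), with knockdowns as solid and controls as dashed lines, and a dotted line at 70%. Stalker2 and Tabor show a step between 10% and 30% of the length in the OSC libraries, whereas siGFP Stalker reads add 8 of 27 ends between 30% and 70% before a terminal step of 10 ends in the last 5%.

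For each element and pair, the fold was larger for ends in the last 30% than for upstream ends, though in ovary the intervals overlapped. In OSCs they were 14.5-fold higher with siPIWI for Stalker (8.37 to 27.5), 14.4-fold for Stalker2 (10.5 to 20.2) and 92.7-fold for Tabor (25.5 to 768). Upstream ends were 2.81-fold higher for Stalker (1.58 to 5.37), 5.58-fold for Stalker2 (4.50 to 6.99) and 50.4-fold for Tabor (17.1 to 246). The intervals of the 2 kinds of end were separate for Stalker and Stalker2 and overlapped for Tabor. A larger fold at 3' ends was not particular to the members. Over transposons past each minimum, median log2 ratios were 1.04 for 3' ends and 0.23 upstream in ovary, and 0.71 and 0.25 in OSCs. In OSCs '412' was 653-fold higher at 3' ends (2 siGFP reads) and 62.7-fold upstream, mdg1 381-fold (6 siGFP reads) and 21.8-fold, and blood 6.30-fold and 6.01-fold. All 3 members met the 4-fold call on 3' ends, which 30.3% of 66 transposons met, and Stalker2 and Tabor met it on upstream ends, which 20.0% of 40 met. With 2 siGFP reads at the 3' end and 3 upstream, Tabor passed both minimums only through siPIWI, so its calls are in part set by the filter. With total transposon reads as the scale, the upstream log2 ratio of Stalker2 was 1.93, under the call.

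In ovary, Stalker2 had 61 reads at its 3' end with vreteno knockdown against 0 in the control. The exact 95% interval puts this at least 17.8-fold higher, with no upper limit, and a floor of 3 control reads gives a fold of 22.5. Upstream ends of Stalker2 numbered 17 with knockdown and 3 in the control, a fold of 6.27 (1.81 to 33.4). For 3' ends Stalker was at 9.23-fold (2.82 to 47.7) and Tabor at 18.8-fold (2.95 to 787). Upstream there was 1 Stalker read in each ovary library, and there were 7 Tabor reads with knockdown against 1 in the control (7.75-fold, 0.996 to 349). On 3' ends all 3 met the call, as did 29.3% of 41 transposons, and with total transposon reads as the scale Stalker was under it (log2 ratio 1.65). With 3, 0 and 1 control reads at the 3' end, Stalker, Stalker2 and Tabor entered only through the knockdown library, which nearly fixes these calls. On upstream ends only Stalker2 passed the minimum, again through the knockdown library, and it met the call, as did 28.6% of 21, though not with total transposon reads as the scale (log2 ratio 1.15).

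**Figure D4:**
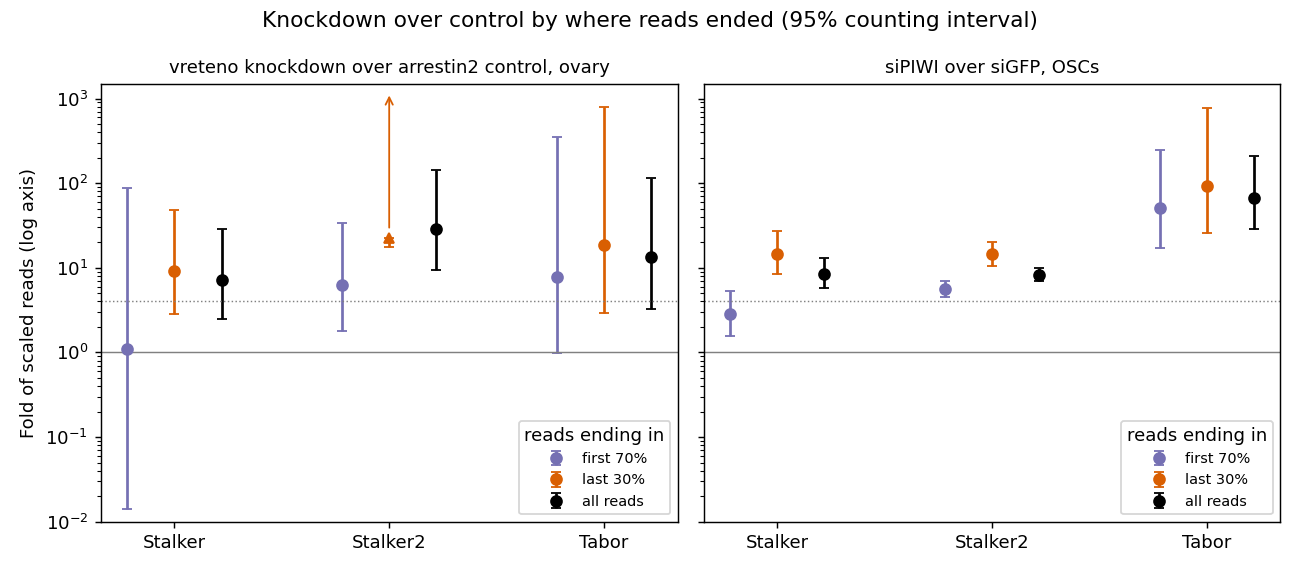
Fold of scaled reads, knockdown over control (vertical axis, log scale), for reads ending in the first 70%, in the last 30% and anywhere, with exact 95% counting intervals, a solid line at 1 and a dotted line at 4. The triangle is the fold of 22.5 for Stalker2 in ovary against a floor of 3 control reads, since the control had 0 reads at the 3' end. The bar below it reaches the exact lower limit of 17.8, and the arrow marks that there is no upper limit.

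The ends were concentrated in a few stretches, which were set out as 5 zones of the consensus after the counts had been seen. In siPIWI OSCs, 337 of 452 Stalker reads (74.6%, 70.3 to 78.5) ended in the last 5%, and 41 (9.07%) in the first 10%, 32 (7.08%) between 10% and 30%, 37 (8.19%) between 70% and 95% and 5 (1.11%) in the middle, between 30% and 70%. In siGFP OSCs the middle held 8 of 27 Stalker reads (29.6%, 13.8 to 50.2), each at a position of its own. The difference of the middle share, siPIWI minus siGFP, was -28.5 points (-47.4 to -14.7). In scaled reads the middle was at a fold of 0.315 (0.0810 to 1.09), while the last 5% was 17.0-fold higher (9.12 to 35.7). Over all transposons the middle held 2.24% of reads with siPIWI and 2.54% with siGFP.

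Stalker2 and Tabor had a large cluster of ends between 10% and 30% of their length. In siPIWI OSCs it held 925 of 2148 Stalker2 reads (43.1%, 41.0 to 45.2) on 93 positions, most often 1338 with 156 reads and 1374 with 144. In siGFP OSCs it held 82 of 131 (62.6%, 53.7 to 70.9), most often at 1374 with 16 reads and 1338 with 11. Reads there were 5.68-fold higher with siPIWI (4.53 to 7.21), and those in the last 5% were 21.1-fold higher (13.7 to 34.3), with 881 and 21 reads. For Tabor the cluster held 255 of 668 siPIWI reads (38.2%, 34.5 to 42.0), with 64 at position 1209 and 40 each at 1192 and 1206, and 3 of 5 siGFP reads, at 1197 and 1209. The Stalker reads in this zone were most often at 1156, with 8 siPIWI reads and 1 siGFP read.

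A smaller cluster lay before the terminal one in Stalker2 and Tabor. Stalker2 had 121 siPIWI reads at position 7119, which is 553 nt from the end, and 9 siGFP reads at the same nucleotide. In vreteno knockdown ovaries 4 Stalker2 reads ended there too. Tabor had 24 siPIWI reads at position 6770, 575 nt from the end, and the zone from 70% to 95% held 102 of its 668 reads (15.3%, 12.6 to 18.2). The Stalker zone held 37 reads with siPIWI on 25 positions, with no more than 4 at any of them.

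The terminal ends were spread over several nucleotides, and the same nucleotides recurred between libraries. Stalker reads ended most often at position 7233, 23 nt from the end, with 9 of 26 reads in vreteno knockdown ovaries and 197 of 452 in siPIWI OSCs. Tabor reads ended most often at 7321, 24 nt from the end, with 6 of 24 and 90 of 668 in the same libraries. Stalker2 ends were less concentrated: in vreteno knockdown ovaries positions 7600 and 7613, which are 72 and 59 nt from the end, held 11 reads each, and in siPIWI OSCs 7613 held 274 and 7608 held 135. In siPIWI OSCs the most used nucleotide thus held 43.6% of Stalker reads, 13.5% of Tabor reads and 12.8% of Stalker2 reads. Of the nucleotides with a Stalker2 read in vreteno knockdown ovaries, 30 of 37 (81.1%) also had one in siPIWI OSCs, and these were 13.2% of the 227 used there. For Tabor it was 18 of 19 (94.7%, and 18.2% of 99) and for Stalker 9 of 12 (75.0%, and 11.0% of 82). The larger OSC libraries cover more nucleotides, so these shares depend on depth.

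**Figure D5:**
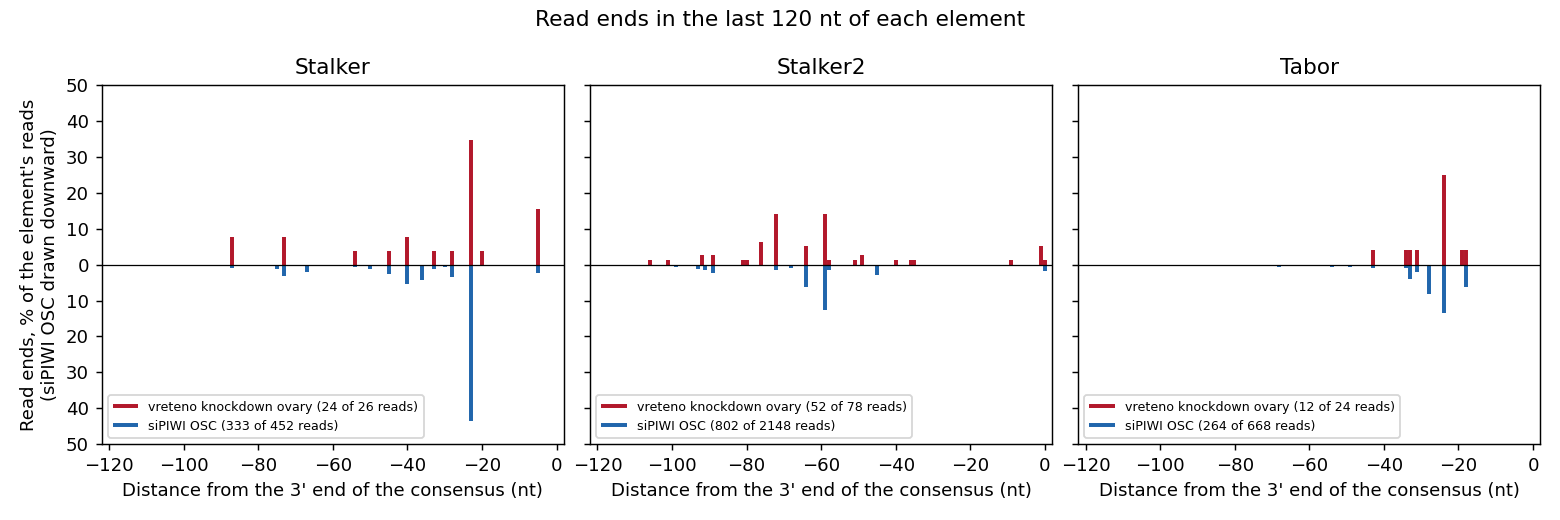
Read ends in the last 120 nt of each element, as percent of that element's reads, by distance from the 3' end of the consensus (horizontal axis, nt), with vreteno knockdown ovaries drawn upward and siPIWI OSCs downward. The tallest bars of Stalker, at 23 nt, and of Tabor, at 24 nt, face each other, while Stalker2 has several bars, with its tallest in siPIWI OSCs at 59 nt.

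The knockdown libraries of the 2 systems differed in the share of Stalker2 reads between 10% and 30% of its length. Within 25 nt of position 1338 there were 0 of 78 reads in vreteno knockdown ovaries (exact upper limit 4.62%) and 373 of 2148 in siPIWI OSCs (17.4%, 15.8 to 19.0). The position was chosen in siPIWI OSCs, and within 50 nt of it vreteno knockdown ovaries had 3.85% of their Stalker2 reads and siPIWI OSCs 32.6%. Over the whole zone from 10% to 30%, vreteno knockdown ovaries had 10 of 78 Stalker2 reads (12.8%, 6.32 to 22.3), 5 of them at position 1664. The difference, vreteno knockdown ovaries minus siPIWI OSCs, was -30.2 points (-36.3 to -20.8). The zone was not empty in ovary RNA, since all 3 Stalker2 reads of the control ovaries ended in it, at 1380, 1394 and 1608. Vreteno knockdown minus control ovaries gave -87.2 points there (-92.9 to -30.3), on those 3 control reads. The share in the last 30% was 25.1 points higher in vreteno knockdown ovaries than in siPIWI OSCs (14.6 to 33.1). Tabor had 6 of 24 reads in that zone in vreteno knockdown ovaries, a difference of -13.2 points with an interval that included 0 (-26.7 to 7.05). For Stalker the share in the last 30% differed by 13.4 points (-1.97 to 18.3). Tissue, method of knockdown and targeted gene differ together here and cannot be told apart.

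Ends within the first 500 nt were set against those at the 3' terminus, at the spacing that paired the most reads over the 4 libraries. Only spacings close to the consensus length were searched, and the pairing counted every end with a facing position at that spacing. Paired reads, the smaller count of each pair summed, were 42 for Stalker at that spacing and 22 at the next best, 66 and 39 for Stalker2, and 22 and 11 for Tabor. Stalker had 41 siPIWI reads in the first 500 nt, 21 of them at position 384, and that position lies 6849 nt before 7233, the main 3' end. The next, position 340 with 8 reads, lies the same distance before 7189, which held 9. In Stalker2 the spacing was 7248 nt: position 365 with 19 siPIWI reads faced 7613 with 274, 331 with 8 faced 7579 with 28, and 360 with 7 faced 7608 with 135. In Tabor it was 6839 nt, with 8 reads at 482 facing 90 at 7321 and 5 at 478 facing 54 at 7317. In siPIWI OSCs 40 of the 41 Stalker reads in the first 500 nt, 54 of 59 for Stalker2 and 22 of 22 for Tabor had a read at the facing position, a count that the choice of spacing favours. The consensus length less this spacing is 407 nt for Stalker, 424 nt for Stalker2 and 506 nt for Tabor, lengths that the searched range kept short in advance. The 5' and 3' repeats of an LTR element share their sequence, and whether these reads came from the 5' repeat or were placed there from the 3' repeat was not tested. Without the first 500 nt, the share of siPIWI Stalker reads in the last 30% was 91.0%.

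Among the members, Stalker stood apart in siPIWI OSCs. Its share of ends in the last 30% was 29.7 points above Stalker2 (25.4 to 33.5) and 27.7 points above Tabor (22.4 to 32.6), while Tabor and Stalker2 differed by 2.02 points (-2.32 to 6.31). In vreteno knockdown ovaries Stalker again had the highest share, 17.9 points above Stalker2 (1.04 to 28.8) and 25.3 points above Tabor (4.60 to 45.6). There Tabor minus Stalker2 was -7.37 points (-28.8 to 10.3), so no order between those 2 was detectable at this depth in either library. In siGFP OSCs the interval of Stalker minus Stalker2 included 0 (-1.69 to 36.9 points).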

How the data were processed

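RNA was extracted with TRIzol, poly(A)-selected on oligo(dT) beads and prepared with an Oxford Nanopore direct RNA kit that included reverse transcription, per the labels' protocols. The deposited values are counts, whole numbers at 672432 positions of 150 sequences in every library. Per the file headers the columns hold sequence, position and value, without strand. The only tool in the submitters' processing notes is minimap2. The alignment settings, the reference set and the handling of reads that match several sequences are not given in the sources used here. The unit, read 3' ends, was inferred from the values. The last 10% of the consensus held 67.9% to 89.9% of transposon reads per library.

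Reads were summed per element and split at 70% of its length. Satellites and other repeats (26 sequences) stayed out of transposon totals. Folds have exact conditional intervals and shares have Clopper-Pearson intervals, at 95%. Differences of shares have Newcombe intervals, and a count of 0 has a floor of 3 reads. The fold and interval code was tested on simulated data. The named elements were the 3 members, the other mdg1-group entries and, per member, the 3 nearest profiles. HMS-Beagle2 and Transib1 are named only for their place in the plot of both comparisons. Members and lists were chosen with earlier results of these data known. Zones, spacings and the comparison of the knockdown libraries were set after the counts were seen. Alternatives covered scaling, pseudocount, read minimum, boundary and window. Analyses used Python 3.11.15, numpy 2.4.6, pandas 2.3.3 and scipy 1.17.1.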

Additional observations from a re-analysis of the deposited data

How the results depend on the processing

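Of 200 recomputed values, 168 stayed within the counting interval (for counts of elements, within 1.5 times) of the reported value and 32 did not, and no direction whose interval excluded equality turned. Shares and counts of elements are never negative and could not turn, and some settings returned the same value. Wide intervals also let a change of sign count as within. With total transposon reads as the scale, the upstream log2 ratio of Stalker in ovary went from 0.08 to -0.45. Scaled to the non-transposon sequences, the OSC minus ovary difference of Stalker went from 0.35 to -0.34. Scaling to total transposon reads moves log2 ratios of all transposons by -1.26 in ovary and -0.54 in OSCs, scaling to the non-transposon sequences by 0.58 and -0.11, and a median ratio without the mdg1 and env lists by 0.22 and 0.36. The total gave log2 ratios of 3.21 for Stalker2 in ovary and of 2.50 for Stalker and 2.50 for Stalker2 in OSCs. For Stalker2 in OSCs it gave 1.93 for upstream ends and 3.28 for 3' ends. In ovary 7 transposons then met the 4-fold call in place of 12, as did 7 with a pseudocount of 10 and 6 with a minimum of 50 reads. The median ratio without those lists put Stalker2 at 3.39 in OSCs. A pseudocount of 10 reads gave 2.89 for Stalker2 and 1.61 for Tabor in ovary and 4.53 for Tabor in OSCs. The highest single position gave 2.72 for Stalker2 in ovary, and 4.65 for Stalker and 3.95 for Tabor in OSCs. Outside the main window of 51 positions, Stalker in OSCs was at 1.93, under the call, because that window holds most of its siPIWI reads. With a boundary at 90%, Tabor had 0% of control ovary ends past it and a difference of 70.8 points in ovary. Without the first 500 nt, 91.0% of siPIWI Stalker ends lay in the last 30%.

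Window width moved the shares near a main end. Within 10 nt in place of 25 nt, Stalker 3' ends were 46.2% of reads in vreteno knockdown ovaries, 0% in control ovaries, 48.7% in siPIWI and 7.41% in siGFP OSCs. Stalker2 was at 12.0% upstream and 22.5% at the 3' end in siPIWI OSCs, and at 24.4% at the 3' end in vreteno knockdown ovaries. Tabor upstream was at 18.6% in siPIWI OSCs and 0% in control ovaries. Within 50 nt, Stalker 3' ends were 70.8% in siPIWI OSCs, and Stalker2 was at 35.5% at the 3' end and 32.6% upstream in siPIWI and 51.9% upstream in siGFP OSCs, with 3.85% upstream in vreteno knockdown ovaries, where 25 nt gave 0%. No paired analysis was possible because each group had 1 library, and no library could be left out. Depth limits the ovary control most, with 2 to 4 reads per element, and Tabor with 5 reads in siGFP OSCs.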
